A study of Mus musculus with 6 samples.

Results

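Mitochondria carry their own small circular genome, mtDNA, which is copied and transcribed by proteins encoded in the nucleus. TFAM coats and packages mtDNA into nucleoids and also helps to start its transcription, and its amount is tied to the amount of mtDNA in many tissues. POLRMT, the mitochondrial RNA polymerase, works with TFAM and TFB2M at the promoters. POLG and its accessory subunit POLG2 copy the genome together with the helicase Twinkle, encoded by Peo1, and the single-strand binding protein SSBP1. TFB1M is a methyltransferase of the small mitochondrial rRNA, and LONP1 is a matrix protease that degrades TFAM. In spermatogenesis mitochondria are rebuilt as spermatids elongate, and mtDNA is reduced before the mature sperm forms. In mouse testis some Tfam transcripts begin at another first exon and encode a protein without the mitochondrial targeting sequence, a difference at the 5' end that reads of 3' ends cannot show.

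The 9 genes Tfam, Tfb1m, Tfb2m, Polrmt, Polg, Polg2, Peo1, Ssbp1 and Lonp1 were examined by their gene symbols, out of 17132 genes in the table. They hold 30 of its 73540 cleavage and polyadenylation sites (pAs), of which 23 lie in the last exon. In mm9 (GENCODE vM1 annotation) the genes on the minus strand are Tfam at chr10:70688212-70701028, Tfb1m at chr17:3519263-3557713, Tfb2m at chr1:181458186-181476398, Polrmt at chr10:79198868-79209326, Polg at chr7:86593677-86611248, Polg2 at chr11:106629567-106640851 and Lonp1 at chr17:56753724-56766326. On the plus strand are Peo1 at chr19:45080563-45087252 and Ssbp1 at chr6:40421351-40431822. Tfam was chosen by its reads at the pAs in the comparison made here, where their use shifts, so its values are given as a description, with no test. The other 8 genes were chosen by function, with earlier results of these data known.

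The samples are whole testes of FVB mice at 1, 2, 3, 4, 5 and 6 weeks after birth (1w to 6w), with no treatment and no altered gene named, and 1 library per week, 6 in all. RNA was sequenced by 3'READS, which captures the 3' ends of poly(A)+ RNA and counts PASS reads, those that support a pA. The study contrasts 1–3 week with 4–6 week samples, and this comparison of 3 libraries with 3 is the only replicated one, so its spread holds age as well as error. No label says how many animals went into a library. Reads assigned to a single gene ranged from 3497870 at 2w to 5427850 at 6w, and the 10 most abundant genes took from 8.55% of them at 2w to 32.4% at 6w. The summed level of 8 spermatid markers found in the table, such as Tnp1 and Prm1, was 444, 68.9 and 539 RPM (reads for every 1e6 listed PASS reads) in the 1–3 week libraries, by age, and 83892, 158623 and 187338 RPM in the 4–6 week libraries. The summed level of 7 Sertoli cell markers went from 1916 to 4801 RPM in the 1–3 week samples to 313 to 672 RPM in the 4–6 week samples. At 1w the spermatid marker sum was mostly Tnp1 (255 RPM) and Prm1 (173 RPM), with 0 reads of Prm3. Reads of germ cell and Sertoli cell markers were thus found in each library, and which cells held them was not tested. In whole testis, fewer cells of a type and less RNA per cell cannot be told apart.

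A reader of 3' ends sees how much of the 3'UTR a transcript keeps. Cleavage is directed mainly by a hexamer upstream of the pA, most often AATAAA and next ATTAAA, and weaker variants serve other sites. The last exon of Tfam, on the minus strand of chromosome 10, holds 7 pAs. The sequences at 5 of them are shown because the change in Tfam lies in which of these ends is used, and the 2 ends of Polrmt are shown for comparison, as a pair whose ratio change had the other sign but did not pass the test. Each is the 30 bases of mm9 that end at the pA, 5' to 3' on the transcript strand, with the hexamer in capitals where one starts 10 to 39 nt before the pA.
Tfam 102 nt after the stop codon, chr10:70691205-70691234: ctagaacgGATAAAggtggttaacctttga
Tfam 162 nt after the stop codon, chr10:70691145-70691174: tttctgttaatactttgagccttgacagaa
Tfam 280 nt after the stop codon, chr10:70691027-70691056: tgggctagatagactgtgaagtgactttca
Tfam 623 nt after the stop codon, chr10:70690684-70690713: tgcatagAATAAAaactctaattttccaaa
Tfam 3091 nt after the stop codon, chr10:70688216-70688245: gcattatttaaATTAAAtgctaaacaagaa
Polrmt 63 nt after the stop codon, chr10:79198916-79198945: tgtaAATAAAtgaaagtttgtgtctaccta
Polrmt 107 nt after the stop codon, chr10:79198872-79198901: ttctggcggtgcgcaaacccaccaaagtaa

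Of the 7 Tfam pAs, the site at 623 nt holds AATAAA and the last one, at 3091 nt, holds ATTAAA. The most proximal site holds the variant GATAAA, and those at 162 and 280 nt hold none of the 12 hexamers searched on the transcript strand (AATAAA and ATTAAA, with the variants AGTAAA or TATAAA or CATAAA or GATAAA or AATATA or AATACA or AATAGA or ACTAAA or AAGAAA or AATGAA). Over all 45622 last-exon pAs, 52.8% hold AATAAA or ATTAAA, 22.3% hold only a variant, and 24.9% hold none. GATAAA, alone or beside another of these hexamers, is found at 2.65%. Among the 4270 genes with a measurable pair of pAs, 78.9% of distal sites but 53.6% of proximal sites hold AATAAA or ATTAAA. Tfam thus has a variant at the proximal and AATAAA at the distal site. The match is a description of letters and does not show that a factor binds there. The site at 102 nt coincides with the annotated 3' end of the protein-coding transcript Tfam-002 (0 nt apart), and that at 3091 nt lies 4 nt from the end of Tfam-001. The site at 623 nt, the main one in young testis, is 510 nt from the nearest annotated end.

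Most Tfam reads lay at the 623-nt site up to 3w and at the 102-nt site from 4w on. From the youngest to the oldest library, the proximal site had 6, 3 and 4 reads, then 1160, 2457 and 3364. In the same order the 623-nt site had 239, 283 and 128, then 88, 59 and 72. The site at 3091 nt, which leaves the longest 3'UTR, had 26, 17 and 8 reads, then 5, 1 and 4. In raw reads the windows did not overlap at any of these 3 sites, with the first site high only in the older samples and the others high in the younger ones. Tfam was chosen for this shift, so the lack of overlap is a description only.

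**Figure D1:**
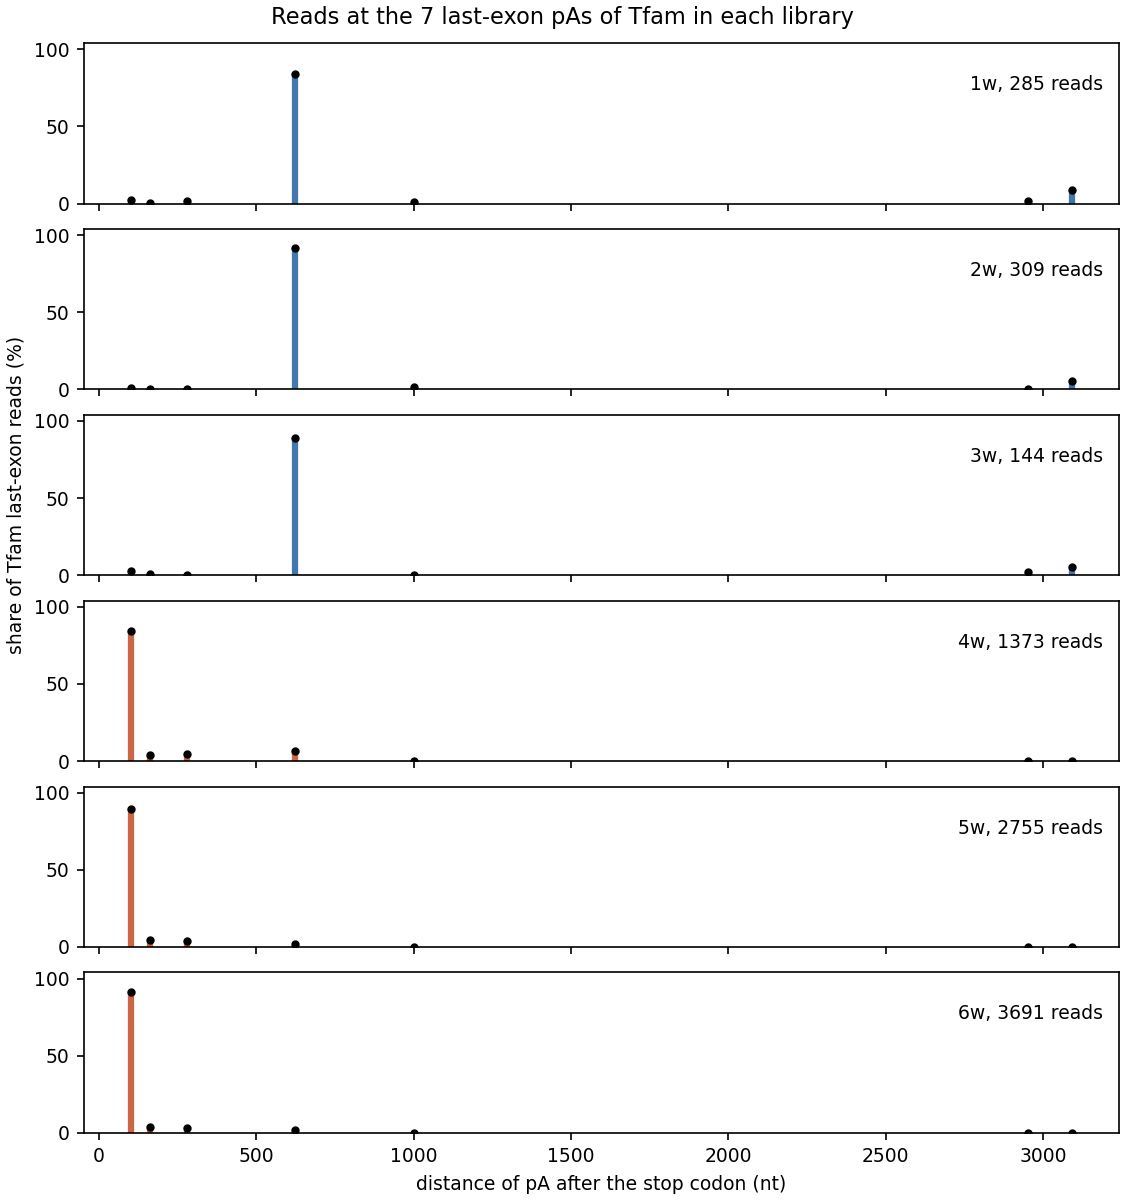
Share of Tfam last-exon reads (%, vertical axis) at each of its 7 pAs, placed by distance after the stop codon (nt, horizontal axis), with 1 panel per library and the reads behind it. The tall bar stands at 623 nt in the 1–3 week panels (83.9% to 91.6%) and at 102 nt in the 4–6 week panels (84.5% to 91.1%).

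The rise in Tfam reads was at the proximal sites, while reads at the 623-nt site fell in RPM. The 3 proximal sites together had 2.61, 0.708 and 1.09 RPM at 1w, 2w and 3w, and 245, 449 and 516 RPM at 4w, 5w and 6w, a mean of 1.47 ± 1.01 against 403 ± 141 RPM (SD, n = 3 libraries each). That is 275-fold, from 20 reads in the 1–3 week samples to 7589 in the 4–6 week samples. The 623-nt site went from 52.0, 66.8 and 27.9 RPM to 16.8, 9.82 and 10.3 RPM, a 3.97-fold lower mean. Part of that fall goes with scaling: after TMM scaling, which sets most genes level between libraries, the site had 40.4, 50.3 and 28.0 against 28.2, 21.1 and 26.8 RPM, and the windows overlapped. The 3 sites beyond it had 68 reads in the 1–3 week samples and 11 in the 4–6 week samples. The few proximal reads of the 1–3 week samples (12, 3 and 5 by age) were lowest at 2w, as were the spermatid markers. Between 1w and 3w the order differed: proximal reads were fewer at 3w, while the marker sum was higher (539 against 444 RPM). The part of spermatid RNA in the shift was not tested.

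Sorted by signal, the 2 Tfam sites with AATAAA or ATTAAA held 701 reads in the 1–3 week samples and 229 in the 4–6 week samples, while the 5 sites with a variant or no signal went from 37 to 7590 reads. Of the 7590 reads, 7589 lay at the 3 proximal sites, so this sorting repeats the shift Tfam was chosen for. The variant site at 1003 nt went from 3, 5 and 0 reads to 1, 0 and 0. The site at 2951 nt, with no signal, went from 5, 1 and 3 reads to 0, 0 and 0. Among the 3 proximal sites, the one at 102 nt took 90.7%, 91.2% and 93.1% of reads at 4w, 5w and 6w. The sites at 162 and 280 nt rose beside it, from 1, 0 and 1 to 58, 125 and 146 reads and from 5, 0 and 0 to 61, 113 and 105 reads. Their shares of the 3 sites were small and close over these weeks, 4.04% to 4.64% at 162 nt and 2.90% to 4.77% at 280 nt.

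The 3'UTR piece lost with the shift, between the 102-nt and 623-nt sites, is 521 nt long, near the median of 532 nt over the 4270 genes with a pair. On its transcript strand, counting overlapping matches, it holds 11 TTTT (2.11 per 100 nt, against a median of 1.44), 4 TGTA and 1 ATTTA, letters found in sites of U-rich, Pumilio and AU-rich element binding proteins. The 102 nt left between the stop codon and the first pA hold 0 of each of these 3 motifs. For TTTT, 68.8% of the genes had a lower density than Tfam, so the piece is not unusual among such pieces.

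The weighted mean 3'UTR size of Tfam, by reads at all 7 sites, was 874, 767 and 791 nt at 1w, 2w and 3w and 157, 124 and 123 nt at 4w, 5w and 6w. RE, the ratio of Dis-pA to Prx-pA on the log2 scale after adding 1 read to both, was 5.10, 6.15 and 4.69 and then -3.71, -5.36 and -5.53. The Prx-pA and Dis-pA are the pair of last-exon pAs with most reads, here those at 102 and 623 nt. RED, the change in RE from a week to the next, was 1.05 into 2w, -1.46 into 3w, -8.39 into 4w, -1.65 into 5w and -0.17 into 6w. The step from 3w to 4w thus held most of the shift, each value being 1 library against 1.

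Summed over its last-exon sites, Tfam had 285, 309 and 144 reads in the 1–3 week libraries, by age, and 1373, 2755 and 3691 in the 4–6 week libraries. In RPM these are 62.0, 72.9 and 31.3, then 263, 459 and 527, a 7.51-fold higher mean (55.4 ± 21.6 against 416 ± 137 RPM, SD, n = 3 each). The lowest library was 3w, the last before the rise. Of all genes with a last-exon read in any library, including those below the filter on low counts, 76.6% had a lower RPM than Tfam at 3w and 98.96% at 6w. The fitted log2 change was 4.38 with TMM scaling and 2.91 with listed PASS totals.

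Reads come from the 3' end whatever the length of a transcript, so RPM needs no scaling by length. Capture of different 3' ends was not calibrated, so comparisons between genes here are of reads only. Tfam made up 30.5%, 27.6% and 18.1% of the reads of the 9 genes at 1w, 2w and 3w, and 80.4%, 90.3% and 93.8% at 4w, 5w and 6w. The other 8 genes together had 141, 192 and 142 RPM in the 1–3 week samples and 64.1, 49.5 and 34.7 RPM in the 4–6 week samples. In RPM, Tfam and the sum of the other genes thus went apart. This is a description only, since Tfam was chosen by its reads in this comparison. The median gene also fell with listed PASS totals, by a log2 change of -1.38, against -0.07 with TMM scaling.

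**Figure D2:**
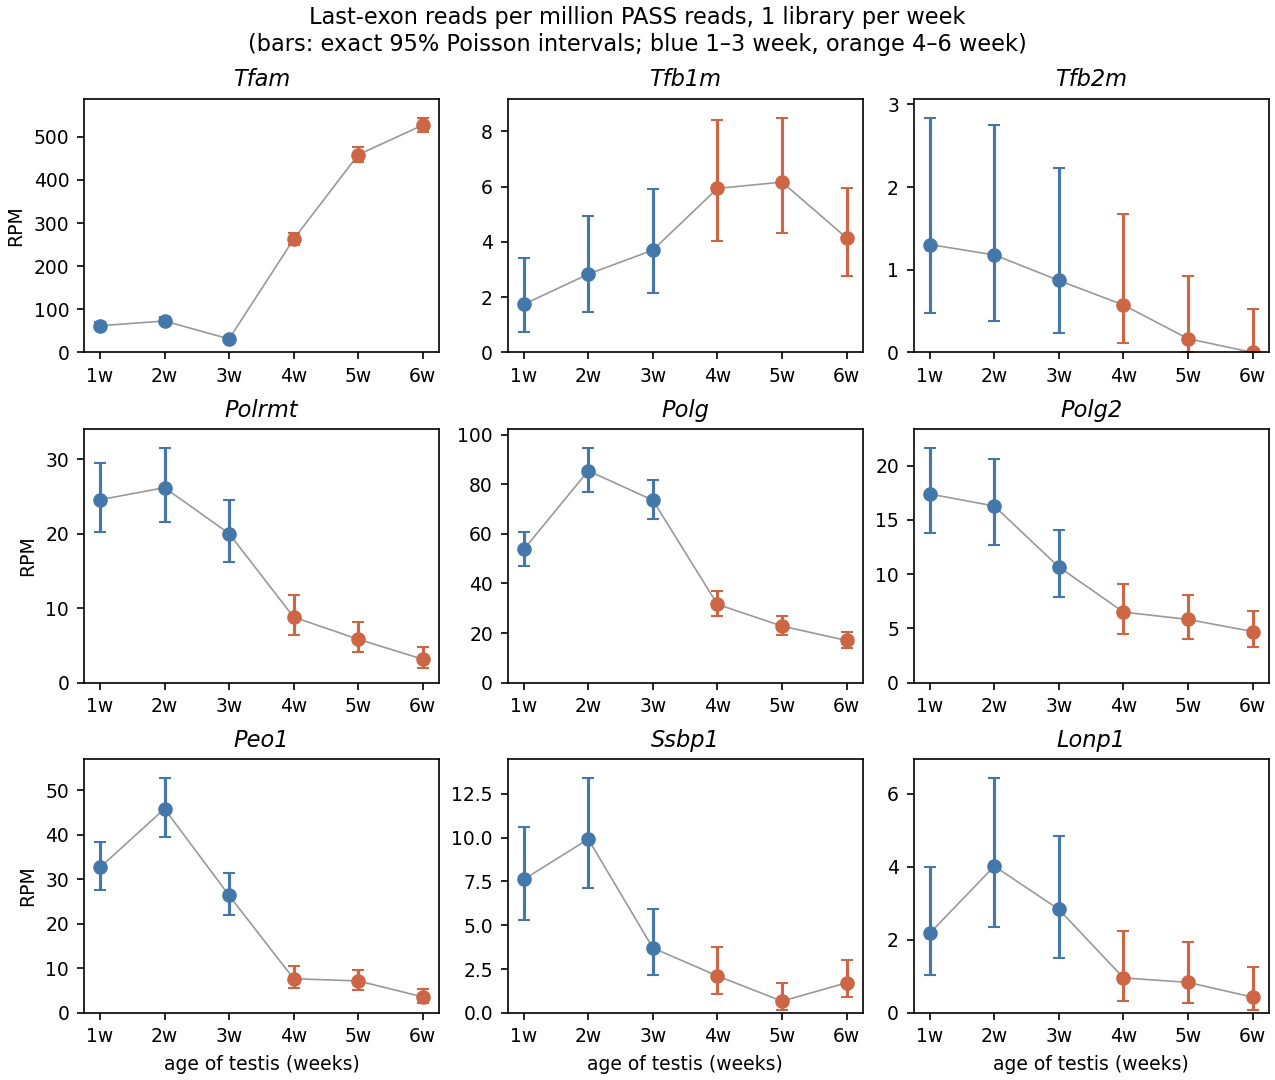
Level of each of the 9 genes (RPM of last-exon reads, vertical axis, own scale per panel) in the library of each week (horizontal axis), with exact 95% Poisson intervals that cover counting error only. Tfam and Tfb1m lie higher in each 4–6 week library than in any 1–3 week library, and the other 7 genes lie lower.

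In RPM, all 4–6 week libraries lay above all 1–3 week libraries for Tfb1m alone of the 8 genes other than Tfam, and below them for the other 7. Tfam also lay above, but it was chosen by its reads in this comparison, so its place is a description only. Over the 11269 genes tested, 14.3% lay above in this way and 60.6% below, so a fall in RPM was the common case. The scaling sets much of this: the median gene changed by -1.38 on the log2 scale with listed totals and by -0.07 with TMM. After TMM scaling Tfb1m still lay above (as did Tfam), against 33.1% of genes, and Polrmt and Peo1 lay below, against 33.9%, while the remaining 5 genes overlapped. Changes below are given on the TMM scale, relative to most genes, by edgeR's quasi-likelihood test with p adjusted over the 11269 genes, of which 17.7% were called higher and 22.5% lower in the 4–6 week samples. Of the 7 genes other than Tfam that passed the filter on low counts, 1 was called higher and 1 lower. At the size of 3 against 3, an exact permutation test of a single gene cannot go below 0.1.

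Tfb1m, the rRNA methyltransferase, was the member other than Tfam that rose. Its last-exon reads, by age, were 8, 12 and 17 in the younger and 31, 37 and 29 in the older libraries. Its reads were few in every library, and the windows did not overlap. In RPM its mean went from 2.76 ± 0.983 to 5.41 ± 1.10, or 1.96-fold (SD, n = 3 each). The fitted log2 change was 2.24 (SE 0.43, edgeR adjusted p = 0.0167). With listed totals it was 0.96 (adjusted p = 0.0916) and no longer passed. Without 2w, 5w or 6w the change was 2.15, 2.22 and 2.38, with edgeR adjusted p of 0.0558, 0.0847 and 0.0825. The last exon of Tfb1m overlaps Tiam2, which lies on the opposite strand.

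Tfb2m, the transcription factor that opens the promoter for the polymerase, was the lowest of the 9 genes and did not pass the filter. It had 6, 5, 4, 3, 1 and 0 reads from 1w to 6w at its single pA, 1123 nt after the stop codon. The 0 reads at 6w allow up to 3 reads, so an absence of Tfb2m RNA at 6w is not shown at this depth.

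Polrmt, the RNA polymerase, had 113, 111 and 92 reads in the 3 younger libraries, in order of age, and 46, 35 and 22 in the 3 older ones. Its level was nearly even over the 1–3 week samples (24.6, 26.2 and 20.03 RPM) and lower in each 4–6 week sample (8.80, 5.83 and 3.14 RPM). The log2 change on the TMM scale was -0.73 (SE 0.30, edgeR adjusted p = 0.0868), past the threshold only with listed totals (-2.00, adjusted p = 0.00805).

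Peo1, which encodes the helicase Twinkle, fell. By age it had 150, 194 and 121 reads and then, from 4w, 40, 43 and 25, all at 1 pA with the variant AATGAA, 858 nt after the stop codon. The mean went from 34.9 ± 9.92 to 6.13 ± 2.23 RPM, 5.70-fold lower, with no overlap (SD, n = 3 each). The log2 change was -1.20 (SE 0.30, edgeR adjusted p = 0.0261), and -2.51 with listed totals (adjusted p = 0.00552). Without 2w, 4w, 5w or 6w it was -1.06, -1.07, -1.26 and -0.91, with edgeR adjusted p of 0.0842, 0.0922, 0.0946 and 0.125. The summed Sertoli cell and spermatogonia markers were also lower in every 4–6 week library (spermatogonia 539 to 1941 against 128 to 259 RPM). Most of the spermatogonia sum was Uchl1 (512 to 1851 against 109 to 236 RPM). On the TMM scale 1 of the 4 spermatogonia markers tested was called lower. Kit, Stra8 and Uchl1 had negative log2 changes. Nanos3 had a positive one that was not called (0.81, edgeR adjusted p = 0.0961). In RPM its windows overlapped, with 24.1, 21.0 and 9.80 and then 12.8, 11.0 and 12.6. Gfra1 also went the other way, from 0 reads in each younger library to 4, 12 and 18. The part of these cell types in the fall of Peo1 was not tested.

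The polymerase subunits were less far from the median gene. Polg, the catalytic subunit, had by age 247, 362 and 338 reads, and from 4w 165, 137 and 119. Its log2 change was -0.30 on the TMM scale (SE 0.31, edgeR adjusted p = 0.429). Polg2, the accessory subunit, had 80, 69 and 49 reads and then 34, 35 and 33, with a log2 change of -0.03 (SE 0.25, edgeR adjusted p = 0.918). Both had lower RPM in every 4–6 week library, while on the TMM scale their windows overlapped. In RPM the mean of Polg went from 70.9 ± 16.0 to 23.8 ± 7.34, and that of Polg2 from 14.8 ± 3.61 to 5.68 ± 0.904 (SD, n = 3 each).

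Ssbp1, which coats single-stranded mtDNA, had by age 35, 42 and 17 reads, and from 4w 11, 4 and 12 (log2 change -0.86, SE 0.50, edgeR adjusted p = 0.188). Lonp1, the protease, had 10, 17 and 13 reads and then 5, 5 and 3 (log2 change -0.72, SE 0.43, edgeR adjusted p = 0.197). Both were lower in RPM in each 4–6 week sample but stood on few reads. With listed totals the 6 genes from Polrmt to Lonp1 were all called lower, by -1.38 for Polg2 to -2.51 for Peo1, where 54.9% of all genes were called lower and 9.60% higher.

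**Figure D3:**
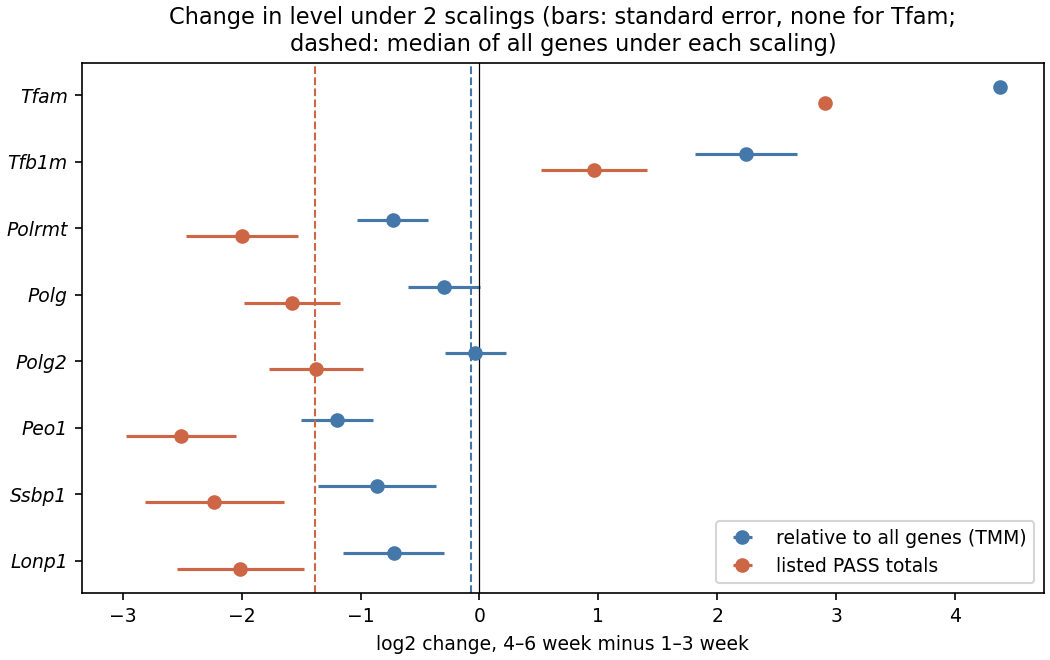
Log2 change in level, 4–6 week minus 1–3 week samples (horizontal axis), of the 8 genes that passed the filter, by TMM scaling (blue) and by listed PASS totals (orange), with bars for the standard error and dashed lines at the median of all genes under each scaling. Tfam and Tfb1m lie right of both medians. Peo1, Polrmt, Ssbp1 and Lonp1 lie left of the median under each scaling, Peo1 furthest, and Polg and Polg2 lie near it.

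Ordered by mean RPM, the 1–3 week samples ran Polg (70.9), Tfam (55.4), Peo1 (34.9), Polrmt (23.6), Polg2 (14.8), Ssbp1 (7.07), Lonp1 (3.01), Tfb1m (2.76) and Tfb2m (1.12). Neighbours whose 3 libraries overlapped were Polg with Tfam, Tfam with Peo1, Ssbp1 with Lonp1 and Lonp1 with Tfb1m. The 4–6 week samples ran Tfam (416), Polg (23.8), Peo1 (6.13), Polrmt (5.92), Polg2 (5.68), Tfb1m (5.41), Ssbp1 (1.495), Lonp1 (0.739) and Tfb2m (0.247). Here Tfam stood clear of Polg, and Polg of Peo1, while the libraries of Peo1, Polrmt, Polg2 and Tfb1m overlapped, as did those of Ssbp1 with Lonp1 and Lonp1 with Tfb2m.

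Of the other genes in which a change of 3'UTR length could be measured, none passed the test. A pair of pAs with at least 20 reads in every library was present for Tfam, Polrmt, Polg and Polg2. Over all 4270 such genes, the ratio of Dis-pA to Prx-pA reads was called lower in 34.4% and higher in 1.31%, with a median log2 change of -1.11. That of Tfam was -10.45. Of the 3 other genes, edgeR called 0 in either direction, and 0 passed at an unadjusted p of 0.05 or by DESeq2. The difference between Tfam and these genes is the one Tfam was chosen for and was not tested.

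**Figure D4:**
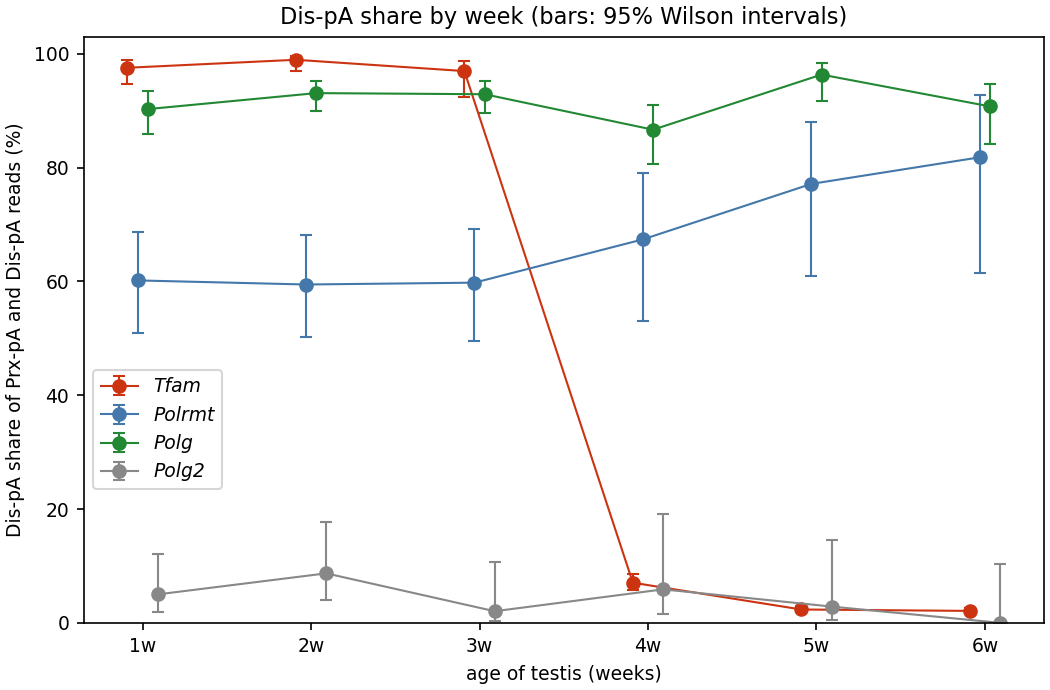
Share of the pair's reads at the Dis-pA (%, vertical axis) by week (horizontal axis) for the 4 genes with a measurable pair, with 95% Wilson intervals that cover counting error only. Tfam drops from 97.0% at 3w to 7.05% at 4w, Polrmt lies at 59.5% to 60.2% and then at 67.4% to 81.8%, and Polg and Polg2 overlap between windows.

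Polrmt ended at 63 nt, with AATAAA, in 45, 45 and 37 reads by age in the younger libraries and in 15, 8 and 4 in the older ones. It ended at 107 nt, with no hexamer of the list, in 68, 66 and 55 reads and then in 31, 27 and 18. Its Dis-pA share was 60.2%, 59.5% and 59.8% and then 67.4%, 77.1% and 81.8%, so the longer form was higher in each 4–6 week sample, as in 5.11% of the genes, against 45.8% with a lower share in each. The log2 change in the ratio was 0.98 (SE 0.50, edgeR adjusted p = 0.155) and did not pass. The ends are 44 nt apart, so the difference in 3'UTR is small, with a mean size of 89.2 to 89.5 nt in the 1–3 week samples and 92.7 to 99 nt later.

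Polg ended mostly at 579 nt, with the variant TATAAA, which by age took 223, 337 and 314 reads in the younger and 143, 132 and 108 in the older libraries. Its Prx-pA at 398 nt, with AATAAA, had 24, 25 and 24 reads and then 22, 5 and 11. The Dis-pA share was 86.7% to 96.4% over the 6 libraries, lowest at 4w and highest at 5w, with a log2 change of -0.13 (SE 0.59, edgeR adjusted p = 0.894). In Polg as in Polrmt, the more used end is not the one with AATAAA. Polg overlaps Fanci on the opposite strand at both ends.

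Polg2 ended at 53 nt in 76, 63 and 48 reads by age and, from 4w, in 32, 34 and 33, and 28 nt further on in 4, 6 and 1 and then 2, 1 and 0. The log2 change of the ratio was -0.79 (SE 0.93, edgeR adjusted p = 0.547). It was also the only one of the 9 genes with enough reads to compare CDS-APA, the use of pAs upstream of the last exon. Its intronic pA had 13, 7 and 2 reads and then 0, 2 and 3, or 10.0% (95% Wilson interval 6.70% to 14.7%) of 220 reads in the 1–3 week samples and 4.67% (2.01% to 10.5%) of 107 in the 4–6 week samples. The log2 change was -1.01 (SE 0.96, edgeR adjusted p = 0.468), where 20.8% of the 2437 genes tested were called higher, 4.19% lower, and the median was 0.75.

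The remaining genes had pairs too thin for the test. Tfb1m ended at 228 nt (AGTAAA) in 1, 1 and 5 reads and then 7, 16 and 6, and at 296 nt (AATAAA) in 6, 10 and 11 and then 20, 18 and 23. Both ends gained reads, and the Dis-pA share, 68.8% to 90.9% and then 52.9% to 79.3%, overlapped between windows. Ssbp1 ended at 102 nt (ATTAAA) in 31, 40 and 15 reads and then 10, 3 and 10, and at 929 nt in 3, 1 and 1 and then 0, 0 and 2. A further Ssbp1 pA at 3779 nt, 2852 nt past the annotated end, had at most 1 read in a library. Lonp1 had 1 last-exon pA, at 87 nt with AATAAA. Intronic reads of Tfb1m, Ssbp1 and Lonp1 numbered at most 5 in any library. Antisense reads upstream of the start site were found for Polg and Ssbp1, with at most 3 in any library, too few to compare between windows.

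Genes whose Dis-pA share over the 6 libraries lay nearest to that of Tfam, by mean absolute difference over 4269 genes, were Pppde1 (1.98 points), Prkar2a (1.98), 9130023H24Rik (3.28), Cdkn1c (3.64) and Gcc1 (4.24). Prkar2a, a regulatory subunit of protein kinase A, had a Dis-pA share of 99.7%, 99.7% and 99.3% at 1w, 2w and 3w and 12.4%, 3.42% and 2.34% at 4w, 5w and 6w. Cdkn1c, a cyclin-dependent kinase inhibitor, went from 97.4%, 100% and 100% to 23.5%, 1.81% and 1.47%. At 4w the share was 1.12% in Pppde1 and 4.42% in 9130023H24Rik, below the 7.05% of Tfam, and 12.4% in Prkar2a, 23.5% in Cdkn1c and 21.1% in Gcc1, above it. By level, as mean-centred log2(RPM + 1) over 11268 genes, the nearest were Arhgef6 (a mean absolute difference of 0.19), Slc39a4 (0.19), Plcb2 (0.22), Tle3 (0.22) and Tmem189 (0.23). Arhgef6, picked for its likeness to Tfam over these libraries, had 9.35, 8.26 and 3.92 RPM and then 51.7, 68.1 and 63.4 RPM. No gene was on both lists.

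The wider mitochondrial gene lists hold 108 genes outside the 9, of which 92 were in the table and 71 passed the filter. On the TMM scale 7 were called higher (9.86%) and 15 lower (21.1%), against 17.7% and 22.5% of all genes, with a median log2 change of -0.16. With listed totals 2 were called higher and 45 lower, where 9.60% of all genes were called higher and 54.9% lower. The counts of each list below are on the TMM scale and stand beside the same 17.7% and 22.5% of all genes. Of 15 listed genes encoded by mtDNA itself, 0 were in the table, so their RNA was not analysed here.

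Among genes of mtDNA replication, repair and the nucleoid, 3 of 9 tested fell and 0 rose, with 0 higher at an unadjusted p of 0.05 and 1 by DESeq2. Atad3a, a membrane ATPase at nucleoids, had 1418, 1787 and 616 RPM at 1w, 2w and 3w and 197, 120 and 55.6 RPM at 4w, 5w and 6w (log2 change -2.07, edgeR adjusted p = 0.0258). Ung, the uracil-DNA glycosylase of base excision repair, fell by 1.81 (edgeR adjusted p = 0.0487), and Top2b, a topoisomerase, by 1.33 (edgeR adjusted p = 0.0241), on the log2 scale.

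Among genes of mtDNA transcription and mitochondrial RNA, 2 of 20 rose and 0 fell, with 1 lower at an unadjusted p of 0.05 and 0 by DESeq2. Slirp, listed as 1810035L17Rik and known to stabilise mitochondrial mRNA, had 113, 102 and 154 RPM and then 160, 125 and 185 RPM (log2 change 1.68, edgeR adjusted p = 0.0300). Mterf3, listed as Mterfd1 and a repressor of mitochondrial transcription, changed by 1.47 (edgeR adjusted p = 0.0197) on 21 to 47 reads a library. Neither passed with listed totals.

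Of 16 genes of nucleotide supply, 2 rose and 5 fell. Sucla2, a succinyl-CoA synthetase subunit tied to mitochondrial nucleotide pools, rose by 1.90 (edgeR adjusted p = 0.0377, or 0.265 with listed totals), while Samhd1, which breaks down dNTPs, fell by 1.76 (edgeR adjusted p = 0.0256) and Abat by 1.75 (edgeR adjusted p = 0.0297). Of 13 mitochondrial protease genes, 2 rose and 2 fell. The 2 parts of the ClpXP protease went opposite ways: the chaperone Clpx had 119, 100 and 187 reads and then 293, 497 and 446 (log2 change 2.47, edgeR adjusted p = 0.0162), and the peptidase Clpp 157, 175 and 64 and then 26, 19 and 21 (log2 change -1.64, edgeR adjusted p = 0.0215). Phb, a prohibitin of the inner membrane, fell by 1.73 (edgeR adjusted p = 0.0222).

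Of 13 regulators of mitochondrial biogenesis, 1 rose and 5 fell. Esrrb, a nuclear receptor, had 1, 2 and 4 reads and then 25, 43 and 37 (log2 change 4.71, edgeR adjusted p = 0.00680). Pprc1, a coactivator, fell by 2.38 (edgeR adjusted p = 0.0313), and Tfeb, a factor of lysosomal genes, by 2.14 (edgeR adjusted p = 0.0115). Many of these calls, though not the direction of the changes, depended on which libraries were in the fit. Without 5w, and without 6w, Esrrb alone of the 14 genes named from these lists for their level stayed called, without 2w Esrrb and Tfeb, and without 4w Clpx, Esrrb and Tfeb. Without 1w, Atad3a, Ung, Slirp, Sucla2, Samhd1, Abat and Pprc1 lost their calls, and without 3w all 14 kept them.

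In the same lists, 7 of 29 genes with a pair were called lower in the ratio of Dis-pA to Prx-pA (24.1%, against 34.4% of all genes), and 0 higher (1 at an unadjusted p of 0.05 and 0 by DESeq2). The lists' median log2 change was -0.50. Nrf1 and the subunits Gabpa and Gabpb1 of GABP, transcription factors known to act on the promoters of Tfam and of other nuclear genes for mitochondrial proteins, were among them. Nrf1 had a Dis-pA share of 100%, 96.6% and 100% at 1w, 2w and 3w and 50%, 23.5% and 15.2% at 4w, 5w and 6w (edgeR adjusted p = 5.2e-04). Gabpb1 went from 100%, 95.5% and 100% to 54.2%, 31.2% and 34.3% (edgeR adjusted p = 7.6e-04), and Gabpa from 55.1%, 62.6% and 54.1% to 30.9%, 28.2% and 20% (edgeR adjusted p = 0.00741). Their levels on the TMM scale were not called different, with log2 changes of -0.07 for Nrf1 (edgeR adjusted p = 0.899), 0.85 for Gabpb1 (edgeR adjusted p = 0.0818) and -0.62 for Gabpa (edgeR adjusted p = 0.124). With listed totals Nrf1 (-1.49, edgeR adjusted p = 0.0286) and Gabpa (-1.90, edgeR adjusted p = 0.00977) were called lower, and Gabpb1 was not (-0.53, edgeR adjusted p = 0.310).

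**Figure D5:**
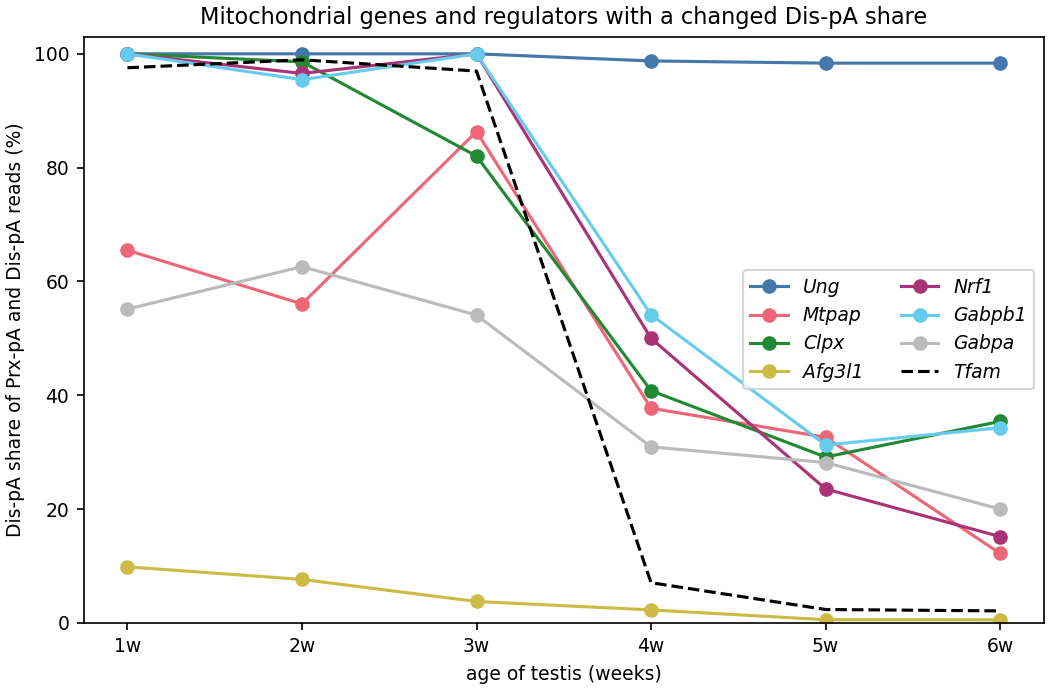
Dis-pA share (%, vertical axis) by week (horizontal axis) of the 7 genes from the wider lists whose ratio was called lower in the 4–6 week samples, with Tfam as a dashed line. At 4w the share of Tfam is 7.05%, below those of Nrf1 (50%), Gabpb1 (54.2%), Clpx (40.8%), Mtpap (37.7%) and Gabpa (30.9%).

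Clpx went from 90.7% of 334 pair reads at the Dis-pA in the 1–3 week samples to 34.1% of 1189 in the 4–6 week samples (edgeR adjusted p = 0.00287), with 303 reads at the Dis-pA in the former and 406 in the latter. Its gain was thus mostly at the shorter form. Afg3l1, a protease subunit of the inner membrane, went from 7.42% to 1.00% (edgeR adjusted p = 0.00641). Mtpap, the mitochondrial poly(A) polymerase, went from 79.2% to 29.1% (edgeR adjusted p = 0.0158), and without 5w or 6w the adjusted p was 0.0510 and 0.0658. The call of Ung is small in share, 100% of 1415 reads against 98.5% of 202 (edgeR adjusted p = 0.00960). In the 4–6 week samples 3.04% of Tfam pair reads lay at the Dis-pA, a lower share than in 6 of these 7 genes and a higher one than in Afg3l1, where the Dis-pA was the minor form from 1w on.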

How the data were processed

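Before deposition, the authors mapped 3'READS reads to mm9 with Bowtie 2 (version not given in the sources used here), kept PASS reads, clustered pAs within 24 nt and assigned them to genes. The deposited values are raw counts of PASS reads per pA, with no normalization, in 1 library per week. PCR reads carry no molecular identifiers, so intervals cover counting error only. Rows whose pA carries several genes (1053) were not used.

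Last-exon reads were summed per gene, and RPM used the PASS totals listed by the study (single-gene reads are 77.0% to 83.3% of them). Windows of 1–3 and 4–6 weeks were compared with edgeR 4.0.16 in R 4.3.3 (quasi-likelihood test, TMM, filterByExpr, threshold 0.05, Benjamini-Hochberg over all genes). Ratios used 2 columns per library with a term for each library, at least 20 reads in every library, and at least 5 CDS-pA reads for CDS-APA. SE was derived from the change and F. Scripts were tested on simulated data. Nothing says that the libraries are separate animals, so p-values measure only the spread between these samples. Alternatives were DESeq2 1.42.0, other scalings, filters and pairs, and leaving out each library. Sequence and annotation were NCBIM37 (mm9) with GENCODE vM1.

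The members and gene lists were chosen with earlier results of these data known. Named genes are all members, from each wider list the 3 largest changes past the threshold in level and in 3'UTR-APA, and the 5 genes nearest to Tfam in share and in level.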

Additional observations from a re-analysis of the deposited data

How the results depend on the processing

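Calls of level depended on the scaling and on single libraries, while no call of a member in 3'UTR-APA or CDS-APA changed under any alternative in which the gene could still be tested. Over all genes, 1990 were called higher and 2541 lower. DESeq2 called 3310 higher, and listed PASS totals 1082 higher and 6183 lower. Leaving out each library gave 338 to 4392 higher and 0 to 4123 lower, the least without 5w, where 0 were lower, and the most without 3w. For the members other than Tfam, with 1 called in each direction, listed totals gave 0 higher and 6 lower, and leaving out libraries gave 0 to 1 in each direction. For the other mitochondrial genes, with 7 higher and 15 lower, DESeq2 gave 15 higher, listed totals 2 and 45, and leaving out libraries 1 to 19 higher and 0 to 23 lower. For 3'UTR-APA, a minimum of 50 reads gave 969 genes lower in place of 1469, and 4 other mitochondrial genes lower in place of 7, with fewer genes tested. Leaving out libraries gave 22 to 138 genes higher in place of 56, and 0 to 1 other mitochondrial genes higher. For CDS-APA it gave 232 to 733 higher in place of 507 and 23 to 282 lower in place of 102. Except for the smaller tests at 50 reads, the cause was not tested. With the most proximal pA set against all later ones, the ratio of Tfam changed by -8.67. RPM by the table's own totals was 20.02% to 29.8% higher for each member and library. No paired analysis was possible because each week is 1 library and the labels give no replicate numbers.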
